A study of Solanum lycopersicum with 6 samples.

Results

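FER, listed as Solyc06g051550.3 with the description "fe inefficient", is the tomato gene for a basic helix-loop-helix (bHLH) transcription factor required for iron uptake by roots. It was chosen by its identifier and is 1 of 35768 genes in the table. The gene lies on chromosome 6, as its identifier states. It was examined in root RNA sequencing libraries of tomato (Solanum lycopersicum) taken 20 days after germination. Libraries came from 3 wild type samples and 3 samples of the slszp1 mutant, and all 6 had received 60 µM Al at pH 4.7. The labels describe the samples as biological replicates and give neither the allele of the mutant nor the number of plants per sample. SZP1 is known as a zinc finger protein that works with the aluminium and acid tolerance factor STOP1. Every difference below is between genotypes under aluminium, because roots without aluminium were not analysed here.

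Plants of this kind take up iron by acidifying the soil around the root, reducing ferric iron at the root surface and importing the ferrous form. FER and its Arabidopsis counterpart FIT switch on genes of this route when iron is short. They act as dimers with other bHLH proteins, and in tomato bHLH068 is known to bind FER. The loss of FER in the tomato mutant fer leaves the plant unable to mount these responses.

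FER was almost absent from mutant roots and abundant in wild type roots. Levels are given as TPM, an abundance corrected for transcript length and scaled to about the same total in each library. In the mutant FER held 0.52, 0.12 and 0.48 TPM in replicates 1, 2 and 3. In wild type it held 101.73, 49.28 and 106.54 TPM in replicates 1, 2 and 3. The genotypes did not overlap, with every mutant library the lower, as was so for 20.2% of tested genes, and the lowest wild type library was 94.8 times the highest mutant library. Mean levels were 0.373 ± 0.220 TPM (SD, n = 3) in the mutant and 85.9 ± 31.8 TPM (SD, n = 3) in wild type. The wild type mean exceeded that of 88.3% of the 17702 genes tested, and the mutant mean exceeded that of 0.672% of them. Tested genes had to reach 1 TPM in at least 3 of the 6 libraries. A mutant mean this low was therefore open almost only to genes that passed through wild type, and its rank says little.

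Differences between genotypes were measured as log2(TPM + 1), mutant minus wild type, a scale that understates the change of genes at low levels. They were tested with limma, and a gene is said to have risen or fallen where its Benjamini-Hochberg adjusted p over all tested genes was under 0.05. FER fell by 5.92 (SE 0.30), the fifth of 17702 tested genes by size of fall, with a limma adjusted p of 2.47e-05. Its fall was known when it was chosen, so this p adds nothing to the levels per library. Over the same fit 3407 genes (19.2%) changed, 1865 lower (10.5%) and 1542 higher (8.71%) in the mutant. An unadjusted limma p under 0.05 was reached by 5758 of the 17702 tested genes. FER reached the minimum for testing, 1 TPM in at least 3 libraries, through the wild type libraries alone, and a gene that passes in this way has to be higher there. Fitted with no minimum, its change was again -5.92, with a limma adjusted p of 0.000289. In all, 15 genes lay at 10 TPM or more in every wild type library and under 1 TPM in every mutant library, and FER was among them. The other way round there were 17 genes. An exact permutation test of 3 against 3 libraries cannot give a p below 0.1.

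**Figure D1:**
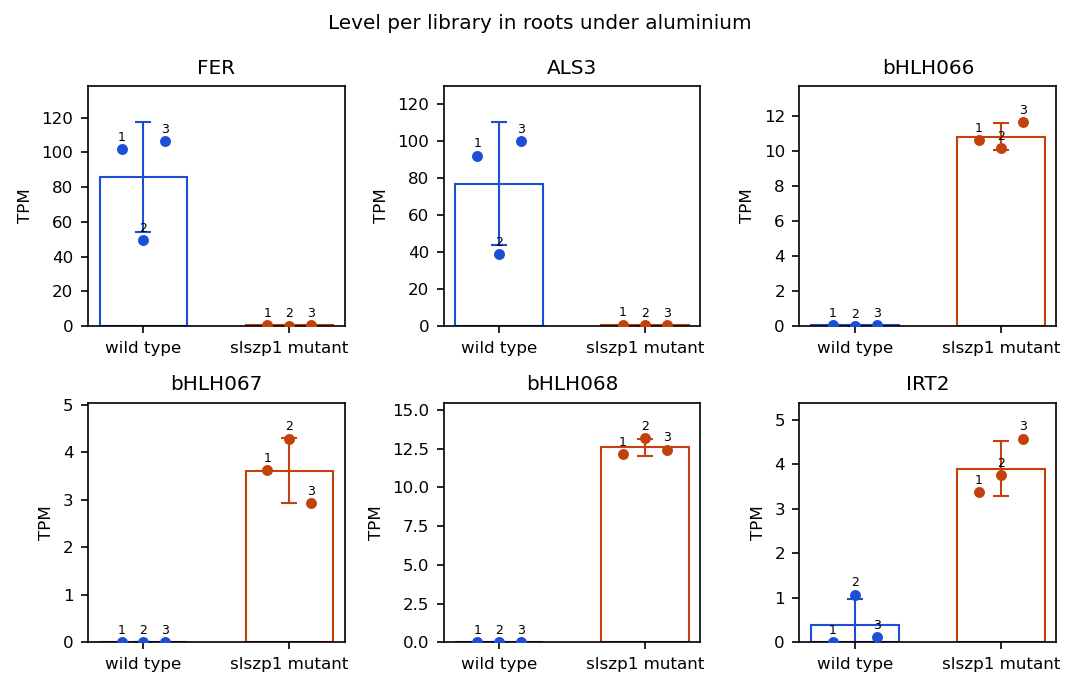
Level in TPM per library for FER, ALS3, 3 bHLH genes and IRT2 in wild type and slszp1 mutant roots. Numbered points are replicates, open bars are means and error bars are SD over n = 3. FER and ALS3 are high in wild type only, with replicate 2 the lowest, and the 3 bHLH genes and IRT2 are higher in every mutant library.

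Wild type replicate 2 held 47.3% of the mean FER level of the other wild type libraries. Among the 15 iron genes that fell, described below, this library was the lowest of the wild type libraries in 11 (73.3%). Among all 1865 genes that fell it was the lowest in 915 (49.1%). Without wild type replicate 2 the FER change was -6.27, with a limma adjusted p of 1.1e-05.

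Of the 5 models numbered next below FER and the 5 next above, 5 reached the minimum for testing. Of these 1 fell and 0 rose, where 19.2% of all tested genes changed. The model just below, the serine/threonine-protein kinase gene Solyc06g051540.3, held 12.3, 10.04 and 10.59 TPM in mutant roots against 13.02, 13.71 and 14.53 TPM in wild type roots. Its mutant libraries lay below the wild type ones, but the difference of -0.30 (SE 0.16) did not pass (limma adjusted p = 0.224). The model just above, the wrbA flavoprotein gene Solyc06g051560.3, was listed at 0 in all 6 libraries. Among these neighbours Solyc06g051600.2, a ubiquitin carboxyl-terminal hydrolase-related model, was the 1 that fell, by 0.90 (SE 0.21), with a limma adjusted p of 0.0191. It held 0.95, 1.22 and 0.96 TPM against 3.44, 2.78 and 2.3 TPM. That call did not pass without mutant replicate 1, mutant replicate 3 or wild type replicate 1 (adjusted p by limma, 0.0684, 0.0504 and 0.0788), nor with the replicate number as a block (0.054).

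The gene for a known bHLH partner of FER moved the opposite way. The 3 largest rises among the bHLH genes were bHLH transcription factors 066, 067 and 068, which lie close together on chromosome 10. The gene for 068 (Solyc10g079680.2), the known FER partner, held 12.14, 13.16 and 12.44 TPM in mutant roots and was listed at 0 in every wild type library. The gene for 066 (Solyc10g079650.2) held 10.63, 10.15 and 11.67 TPM in mutant roots against 0.06, 0 and 0.06 TPM in wild type roots. The gene for 067 (Solyc10g079660.2) held 3.62, 4.29 and 2.93 TPM in mutant roots and was listed at 0 in every wild type library. The mutant libraries lay above the wild type ones for each gene, as they did for 18.2% of all tested genes. Their limma adjusted p were 1.73e-05, 2.47e-05 and 0.000326 for 068, 066 and 067, and each call held without any single library. These genes reached the minimum for testing through the mutant libraries alone, and neighbouring family members can share reads. The model between them, Solyc10g079670.2, described as zinc phosphodiesterase ELAC 2, held 0.38 TPM or less in every library and overlapped between genotypes. The next tested model beyond 068, the two-component response regulator gene Solyc10g079700.2, did not pass, with a difference of 0.05 (SE 0.18; limma adjusted p = 0.876). Whether 066 and 067 bind FER was not examined.

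Another gene described as a FER-like regulator, Solyc06g060730.3, matched in part to Arabidopsis FIT, did not follow FER. It held 8.98, 9.54 and 12.24 TPM in mutant roots against 7.94, 11.43 and 11.17 TPM in wild type roots, and the groups overlapped. Its difference was 0.01 (SE 0.20; limma adjusted p = 0.971), and it was negative without mutant replicate 3 or wild type replicate 1 (-0.11 and -0.14). A further FER-like model, Solyc05g014580.3, marked low quality, was listed at 0 throughout.

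In the wider bHLH family, 99 genes other than FER were tested, of which 13 rose and 13 fell. That is 26.3% changed, beside 19.2% of all tested genes. The 3 largest falls came after that of FER. A low-quality model, Solyc03g044460.1, held 0.29, 1.36 and 2.1 TPM in mutant roots against 58.67, 27.17 and 55.82 TPM in wild type roots. The gene for bHLH transcription factor 070 (Solyc12g010170.2) had 2.01 ± 0.302 against 15.98 ± 2.26 TPM (SD, n = 3 each), and that for 080 (Solyc02g079810.2) 0.147 ± 0.0651 against 4.67 ± 2.79 TPM. FER, Solyc03g044460.1 and 080 were each lowest in replicate 2 among the wild type libraries, and 070 was highest there. The gene for 080 reached the minimum for testing through wild type alone.

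Around FER, 12 lists of iron genes were drawn from the gene descriptions, with 213 genes besides FER. Of these, 96 missed the minimum for testing, 46 of them listed at 0 in all libraries. Among the 117 tested genes, 15 fell and 9 rose, 20.5% in all, beside 19.2% of all tested genes. The share of iron genes that changed was thus near the background. The median difference of the tested iron genes was -0.08, beside -0.0005 over all tested genes. Of the tested genes 10 had been matched by an accident of wording; without them 15 fell and 7 rose. Like FER, 3 of the tested iron genes lay at 1 TPM or more in every wild type library and under 1 TPM in every mutant library. These were Solyc01g094890.3, Solyc01g104780.3 and Solyc02g081570.3, which reached the minimum through wild type alone. The other way round there were 0 tested iron genes. The same count was not made over all tested genes, so these numbers have no background share beside them.

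**Figure D2:**
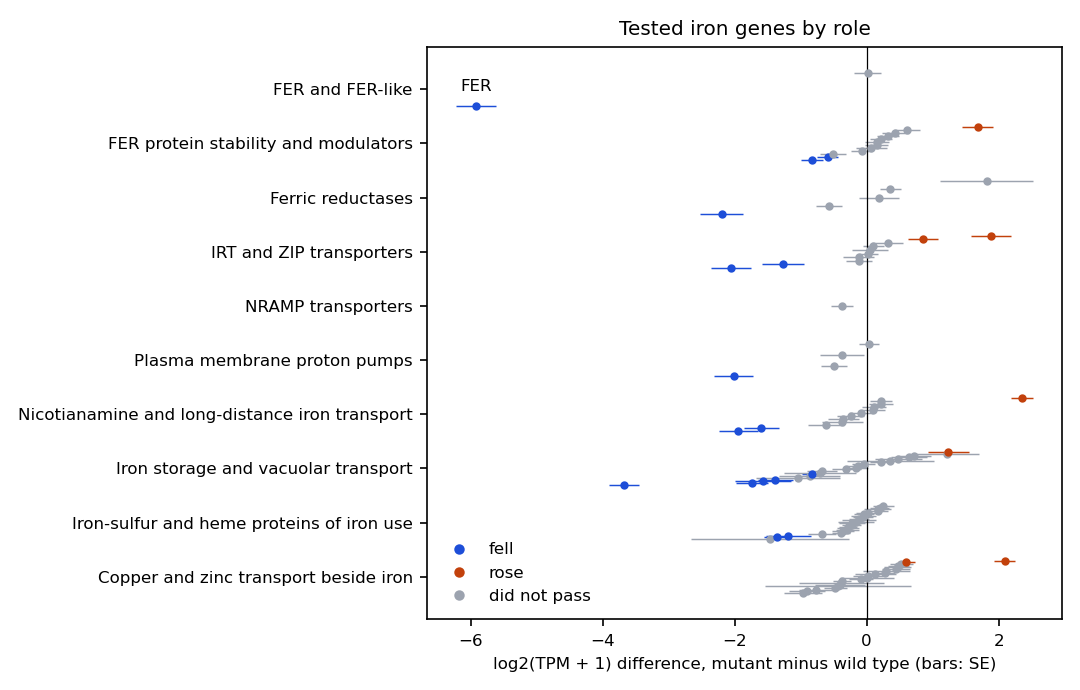
Difference in log2(TPM + 1), mutant minus wild type, for FER and the tested iron genes by role, without genes matched by an accident of wording. Points are genes, bars are SE, and colour marks genes that fell, rose or did not pass limma's adjusted p under 0.05. FER lies at -5.92, further from 0 than any other gene plotted, and most lists hold genes in both directions.

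Of the 12 iron lists, 1 was matched by wording to protein families linked to the control of FER or FIT protein. Its genes are already included in the counts of iron genes above. Whether its members act on FER was not examined. Of its 12 tested genes, 2 fell and 1 rose (25.0%, beside 19.2% of all tested genes). EIL1 (Solyc06g073720.2) belongs to a family of ethylene factors that stabilise FIT in Arabidopsis. It held 20.6, 18.03 and 24.14 TPM in mutant roots against 29.24, 33.87 and 32.6 TPM in wild type roots, without overlap. The difference was -0.59 (SE 0.16; limma adjusted p = 0.0314). The call did not survive removal of any library other than mutant replicate 3 (adjusted p by limma, 0.0588 to 0.12), nor with the replicate number as a block (0.0529). The other 5 tested genes described as EIN3-like or EIL did not pass. Of these, 4 had a positive difference, among them Solyc01g006650.2 with 0.44 (SE 0.20) and Solyc01g009170.3 with 0.33 (SE 0.17), whose mutant libraries all lay above wild type. An EIN3-binding F-box-like gene (Solyc07g008250.3), of a kind that targets those ethylene factors for breakdown, fell from 306.42, 306.86 and 305.54 TPM in wild type to 142.75, 206.56 and 173.61 TPM. The genes for EIN3-binding F-box protein 2 (Solyc08g060810.3) and 1 (Solyc12g009560.2) did not pass and had positive differences. These were 0.61 (SE 0.19; limma adjusted p = 0.0604), with every mutant library above wild type, and 0.16 (SE 0.18), with overlap. A CHY-type RING zinc finger gene (Solyc06g054540.3) rose from 24.8 ± 3.64 to 84.3 ± 29.8 TPM (SD, n = 3 each). Solyc01g067360.3, with the same description, overlapped between genotypes, with a difference of 0.07 (SE 0.23). BRUTUS is an Arabidopsis ubiquitin ligase that restrains the iron deficiency response, and 2 tomato genes were described by a match to it. Solyc03g119305.1 fell, with 6.99, 5.95 and 8.74 TPM in mutant roots against 26.7, 18.81 and 28.97 TPM in wild type roots. It fell by 1.64 (SE 0.21; limma adjusted p = 0.00135). Solyc05g009150.3 overlapped between genotypes, at 14.01 ± 1.39 against 16.5 ± 2.75 TPM. The BRUTUS matches were looked up after the data were seen.

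The classical uptake genes driven by FER in tomato were near 0 in wild type too. The gene described as ferric-chelate reductase (Solyc01g094910.3) held 0.28, 0.03 and 0.17 TPM in mutant roots against 0, 0.47 and 0.03 TPM in wild type roots. The gene for iron-regulated transporter 1 (IRT1, Solyc02g069200.3), the main importer of ferrous iron, held 0.53, 0.17 and 0.64 TPM in mutant roots against 0, 0.05 and 0 TPM in wild type roots. Both missed the minimum for testing, and values this low are uncertain. In these libraries a FER level of 49.28 TPM or more thus stood beside 0.05 TPM or less of IRT1. IRT2 (Solyc02g069190.3), which lies next to IRT1, held 3.37, 3.75 and 4.57 TPM in mutant roots against 0, 1.07 and 0.12 TPM in wild type roots. It rose without overlap (limma adjusted p = 0.00357), opposite in direction to FER.

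Among ferric reductases, 1 of 5 tested genes fell and 0 rose by limma (20.0%, beside 19.2% of all tested genes). An unadjusted p under 0.05 was reached by 3, beside 5758 of all 17702 tested genes. The gene that fell was Solyc01g094890.3, described as a ferric reductase oxidase, with 0.15, 0.19 and 0.11 TPM in mutant roots. Its wild type libraries held 6.65, 2.11 and 5.16 TPM, lowest in replicate 2 as for FER. The change was -2.20 (SE 0.33; limma adjusted p = 0.00254). Its model is numbered close to that of the ferric-chelate reductase gene, whose own values overlapped between genotypes. Ferric reductase oxidase genes that did not pass went both ways. Solyc00g020545.1 had a difference of 1.82 (SE 0.70; limma adjusted p = 0.134), at 23.4 ± 14.9 TPM in mutant against 6.39 ± 5.44 TPM in wild type roots, with overlap. Solyc00g026160.3 had -0.57 (SE 0.20; limma adjusted p = 0.082).

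IRT and ZIP transporters carry ferrous iron and zinc. In the list matched to them by wording 12 genes were tested, of which 2 fell and 2 rose (33.3%, beside 19.2% of all tested genes). Some were matched by an accident of wording, among them a protein kinase family gene. Without these, 10 were tested, of which 2 fell and 2 rose (40%). The zinc transporter gene Solyc02g032100.3 fell, with 1.23, 0.7 and 0.31 TPM in mutant roots against 8.23, 3.96 and 6.79 TPM in wild type roots. Solyc07g065380.4, a putative zinc transporter, held 23.15, 19.16 and 20.89 TPM against 61.77, 30.04 and 75.23 TPM, again lowest in wild type replicate 2. Its change was -1.27 (SE 0.31; limma adjusted p = 0.0267). The call did not survive removal of any library other than wild type replicate 2 (adjusted p by limma, 0.0622 to 0.0923). The zinc transporter gene Solyc06g005620.3 rose from 8.28 ± 1.05 to 16.2 ± 4.94 TPM (SD, n = 3 each). Its call did not survive removal of any library other than mutant replicate 2 (adjusted p by limma, 0.0519 to 0.105), nor with no minimum (0.0611).

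Metal transporter Nramp2 (Solyc04g078250.3), the sole gene of the NRAMP list, did not pass, at 12.2 ± 0.104 TPM in mutant roots against 16.2 ± 2.37 TPM in wild type roots. Another 6 genes described as metal transporters were looked up after the data were seen. Of these 3 were tested, 2 rose and 0 fell (66.7%, beside 19.2% of all tested genes). The root-specific metal transporter gene (Solyc11g018530.2) held 2.19, 1.68 and 5.45 TPM in mutant roots against 0.4, 0.72 and 0.35 TPM in wild type roots. It rose by 1.36 (SE 0.34; limma adjusted p = 0.0239), but it reached the minimum for testing through the mutant libraries alone. The call did not pass without wild type replicate 1 or 3 (adjusted p by limma, 0.0702 and 0.0695), nor with the replicate number as a block (0.0628). Metal transporter AY196092 (Solyc02g092800.3) rose from 21.16, 14.45 and 21.82 TPM to 58.85, 50.31 and 64.39 TPM. The remaining tested gene, Solyc03g116900.3, did not pass, with 8.35, 7.85 and 9.39 TPM in mutant roots against 14.97, 17.19 and 10.4 TPM in wild type roots. Its mutant libraries all lay below wild type, with a difference of -0.65 (SE 0.21; limma adjusted p = 0.0619), and it passed without wild type replicate 3 (adjusted p by limma, 0.027). Among plasma membrane proton pumps, which acidify the soil, 1 of 4 tested genes fell (25.0%, beside 19.2% of all tested genes). This was Solyc03g034370.1, a partly matched model, with 4.7, 10.97 and 6.06 TPM in mutant roots against 31.72, 23.69 and 38.25 TPM in wild type roots.

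Coumarins are phenolics that Arabidopsis roots release to mobilise iron. No gene of that list reached the minimum except a glucose-6-phosphate isomerase matched by wording. Of 17 genes matched to the Arabidopsis coumarin enzyme F6'H1 or its close relative, looked up after the data were seen, 12 were listed at 0 in all libraries. Of the 17, 2 were tested and 0 changed by limma, beside 19.2% of all tested genes, also with 0 at an unadjusted p under 0.05.

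Of 12 tested genes for carriers of iron between tissues, 2 fell and 1 rose (25.0%, beside 19.2% of all tested genes). The gene that rose, Solyc11g012700.2, matches Arabidopsis OPT3, which moves iron into the phloem. It held 20.01, 19.47 and 18.6 TPM in mutant roots against 3.11, 3.29 and 2.61 TPM in wild type roots. The rise was 2.35 (SE 0.17; limma adjusted p = 6.83e-05). A Yellow stripe 1A transporter gene (Solyc03g082620.3), of a family that carries metals bound to nicotianamine, held 8.44, 7.05 and 7.06 TPM in mutant roots. In wild type it held 36.47, 18.99 and 45.66 TPM, the same order of libraries as FER. Its change was -1.94 (SE 0.30; limma adjusted p = 0.0031). A putative oligopeptide transporter gene (Solyc02g081570.3) fell to 0.28, 0.07 and 0.24 TPM from 3.53, 1.57 and 3.06 TPM. The gene described as chloronerva (Solyc01g100490.3), for nicotianamine synthase, did not pass, at 78.1 ± 17.1 against 62.9 ± 12.8 TPM (SD, n = 3 each).

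Of 22 tested storage genes, 5 fell and 2 rose (31.8%, beside 19.2% of all tested genes), and 1 of those that rose was a cation-chloride cotransporter matched by wording. Without genes matched by an accident of wording, 20 were tested, of which 5 fell and 1 rose (30%). The deepest fall in the iron lists after FER was that of a vacuolar iron transporter family gene (Solyc01g104780.3). It held 0.15, 0 and 0.36 TPM in mutant roots against 16.6, 11.32 and 13.92 TPM in wild type roots. Its change was -3.67 (SE 0.23; limma adjusted p = 3.71e-05). A ferritin gene (Solyc06g050980.3), for the protein that stores iron in plastids, held 30.19, 17 and 16.63 TPM in mutant roots against 84.81, 63.26 and 66.02 TPM in wild type roots. The ferritin change was -1.74 (SE 0.24; limma adjusted p = 0.00187). Another ferritin gene, Solyc05g052470.3, overlapped between genotypes, at 39.8 ± 7.01 against 44.3 ± 5.61 TPM. The metal tolerance protein gene Solyc01g006150.3 fell, with 12.1 ± 2.03 against 34.3 ± 12.5 TPM, as did Solyc07g007060.2, with 27.6 ± 4.15 against 49.2 ± 3.72 TPM (SD, n = 3 each). The other storage gene that rose, the vacuolar iron transporter family gene Solyc09g059460.3, held 7.91, 6.93 and 11.95 TPM in mutant roots against 2.05, 5.23 and 2.68 TPM in wild type roots. The rise was 1.24 (SE 0.31; limma adjusted p = 0.0244). That call did not pass without mutant replicate 1 or 3 or wild type replicate 1 or 3 (adjusted p by limma, 0.0565 to 0.0839), with the replicate number as a block (0.0629) or with no minimum (0.0512). An iron vacuolar transporter gene found after the data were seen, Solyc04g008060.3, fell from 5.73 ± 1.17 to 2.21 ± 0.170 TPM.

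In the iron-sulfur and heme list, 2 of 22 tested genes fell and 0 rose by limma (9.09%, beside 19.2% of all tested genes). Of the 22, 4 had an unadjusted p under 0.05, beside 5758 of all 17702 tested genes. The iron-sulfur cluster assembly gene Solyc07g007450.3 held 0.76, 1.2 and 0.8 TPM against 3.67, 3.75 and 4.23 TPM. The other was a low-quality nar-1 model (Solyc11g020050.1; limma adjusted p = 0.0425), whose call did not pass without mutant replicate 1 or 3 or wild type replicate 1 or 3 (adjusted p by limma, 0.105 to 0.137). In the copper and zinc list, 2 of 20 rose and 0 fell by limma (10%, beside 19.2%). Of the 20, 10 had an unadjusted p under 0.05, again beside 5758 of 17702. PLANT CADMIUM RESISTANCE 2 is known for zinc export in Arabidopsis, and a gene of that name (Solyc05g009620.3) rose to 50.01, 61.92 and 51.87 TPM from 11.15, 13.62 and 11.39 TPM. A second gene of that name, Solyc04g007900.3, rose from 62.1 ± 5.53 to 94.6 ± 2.71 TPM. Its call did not pass without mutant replicate 1, mutant replicate 2 or wild type replicate 1 (adjusted p by limma, 0.0536, 0.0658 and 0.0686).

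**Figure D3:**
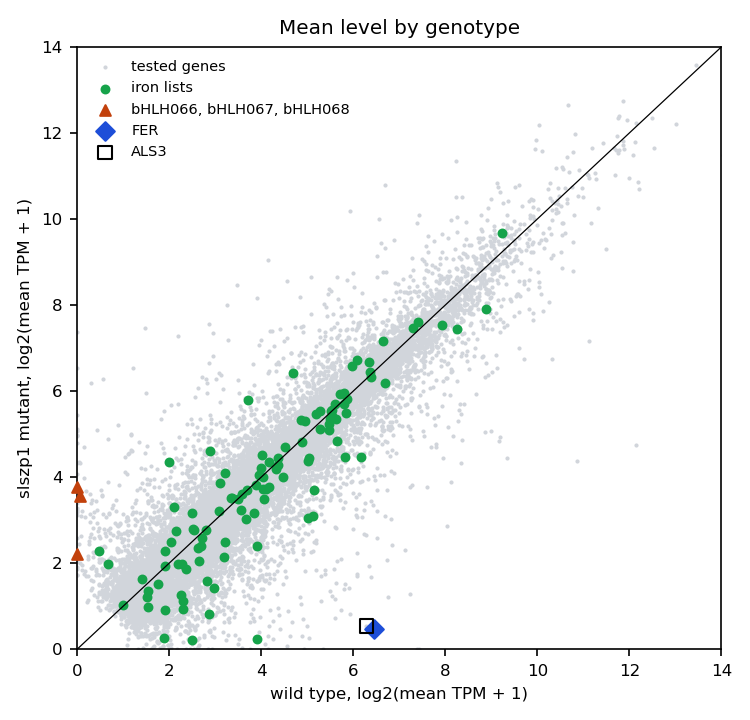
Mean level per gene in wild type (x axis) and slszp1 mutant (y axis), each as log2(mean TPM + 1), for 17702 tested genes, with the line of equal levels. FER and ALS3 lie together at the lower right, bHLH066, bHLH067 and bHLH068 lie on the left edge, and most iron genes lie near the line.

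The gene whose values were most like those of FER was ALS3 (Solyc10g085950.2), described as aluminum sensitive 3, part of a transporter needed for aluminium tolerance in Arabidopsis. Likeness was measured as Pearson r of log2(TPM + 1) over the 6 libraries and as Euclidean distance on that scale, among 17701 tested genes. ALS3 was first by both, with r = 0.999 and a distance of 0.44. It held 0.7, 0.23 and 0.42 TPM in mutant roots against 91.97, 38.68 and 99.94 TPM in wild type roots. Library by library it stayed close to FER, including the low values of mutant replicate 2 and wild type replicate 2. With the mean of each genotype removed, so that the genotype difference no longer counts, r over the 6 libraries was 0.983.

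**Figure D4:**
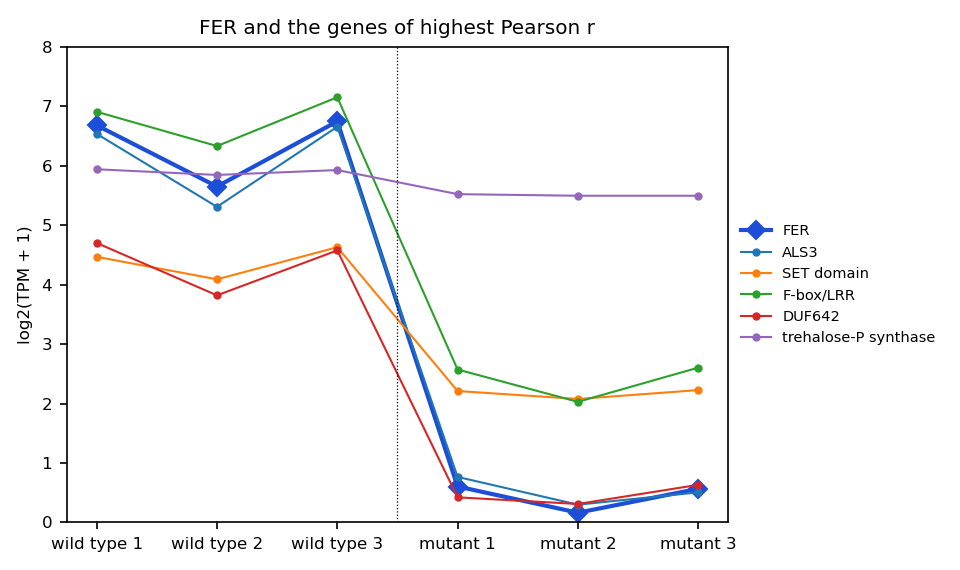
log2(TPM + 1) per library for FER and the 5 tested genes of highest Pearson r with it. Lines only join the points of 1 gene, and the dotted line parts wild type from mutant. ALS3 follows FER in level and in order of libraries, and the trehalose-6-phosphate synthase gene is also lowest in wild type replicate 2 but over a much smaller range.

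An r of 0.99 or more with FER was reached by 98 of 17701 genes. Besides ALS3, the highest were a SET domain gene (Solyc04g071570.3), an F-box/LRR gene (Solyc10g076290.2), a DUF642 gene (Solyc03g120040.3) and a trehalose-6-phosphate synthase gene (Solyc07g055300.3). Their r with FER was 0.999, 0.999, 0.999 and 0.998, and 0.968, 0.939, 0.949 and 0.936 with genotype means removed. The F-box/LRR gene held 4.95, 3.08 and 5.08 TPM in mutant roots against 119.28, 79.62 and 141.45 TPM in wild type roots. The SET domain gene held 3.63, 3.22 and 3.68 TPM against 21.15, 16.04 and 23.78 TPM. The DUF642 gene held 0.34, 0.24 and 0.55 TPM against 25.04, 13.13 and 22.87 TPM. The trehalose gene did not pass the test, at 44.4 ± 0.491 against 59.0 ± 2.13 TPM. By distance, the nearest after ALS3 were a RING/U-box gene (Solyc04g009780.1), a glutamine amidotransferase-like gene (Solyc03g034320.3), NOD26-like intrinsic protein 1.1 (Solyc03g005980.3) and a low-quality cytochrome b5 model (Solyc10g009260.1). With genotype means removed, their r with FER was 0.823, 0.0615, 0.013 and 0.649. These genes lie near FER in level, while the glutamine amidotransferase-like and NOD26-like genes did not share its order of libraries.

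Among the iron lists, the genes closest to FER by r were the vacuolar iron transporter family gene Solyc01g104780.3, the iron-sulfur cluster assembly gene Solyc03g112900.3 and the oligopeptide transporter gene Solyc02g081570.3. Their r was 0.997, 0.982 and 0.981, and 0.797, 0.388 and 0.972 with genotype means removed. Of these, Solyc03g112900.3 did not pass (limma adjusted p = 0.0774). It stood at 184 ± 4.54 TPM in mutant roots against 242 ± 10.1 TPM in wild type roots (SD, n = 3 each). Next came the iron-sulfur cluster assembly gene Solyc07g007450.3, with 0.975, and -0.155 with the means removed. The ferric reductase oxidase gene Solyc01g094890.3 and the Yellow stripe gene Solyc03g082620.3 had 0.971 and 0.969, and 0.867 and 0.935 with the means removed. Among the iron genes that did not pass, r with the means removed ranged from -0.957 to 0.923. A high value of that kind is therefore not particular to genes that fell with FER. All of these r rest on 6 libraries that fall into 2 genotypes, and they carry no test.

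FER is known from the epidermis and inner tissues of the root, and in whole roots fewer cells of a type and less RNA per cell cannot be told apart. The list for root hairs and epidermis summed to 203 to 239 TPM in the mutant and 175 to 226 TPM in wild type, with 2 of 7 tested genes higher and 0 lower (28.6%, beside 19.2% of all tested genes). That for endodermis and stele summed to 59.8 to 80.7 TPM and 64.9 to 96.6 TPM, with 0 of 3 changed by limma and 0 at an unadjusted p under 0.05. That for root cap and meristem summed to 6.51 to 17.8 TPM and 14.7 to 51.9 TPM, with 0 of 4 changed by limma and 1 at an unadjusted p under 0.05. Over all tested genes, 5758 of 17702 had an unadjusted p that low. SCARECROW (Solyc07g063940.2), a marker of the endodermis, overlapped between genotypes, at 35.0 ± 11.1 TPM in mutant roots against 42.7 ± 18.8 TPM (SD, n = 3 each). Photosynthesis genes, which mark green tissue, summed to 770 to 832 TPM in the mutant and 622 to 652 TPM in wild type, with 4 of 42 tested genes higher and 3 lower (16.7%, beside 19.2%). The part of these cell types in the FER difference was not tested. The descriptions name no gene as SZP1, so the genotype labels were not checked against the targeted gene.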

How the data were processed

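Tomato root RNA from 3 slszp1 mutant and 3 wild type samples was sequenced, and the deposited data are 1 table of genes by libraries. The header names no unit. The columns hold at most 2 decimals and sum to 940694 to 974316, and for this reason the deposited values are treated as TPM, which is inferred. Tools listed, per the submitters' processing notes, are TopHat2, HISAT2, StringTie and Cufflinks, with no version or role. The build of the genome was not given in the sources used here. As TPM does not keep depth, sequencing depth is unknown and no counting interval is given. The number of libraries limits the precision.

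Groups came from the labels. Genes that reached 1 TPM in 3 or more of the 6 libraries were analysed as log2(TPM + 1) with limma 3.58.1 (trend and robust options, statmod 1.5.0) under R 4.3.3. P-values were adjusted by Benjamini-Hochberg over all 17702 tested genes. Lists are patterns in the gene descriptions, described by counts only. FER and the lists were chosen with earlier results of these data known. Named genes were FER, its 5 neighbours on each side, the 5 most like it by r and by distance, up to 4 changed members of each iron list or its 2 most abundant, and the 3 largest rises and falls of the bHLH family. Genes outside that rule, including IRT1, the ferric-chelate reductase gene, chloronerva, SCARECROW, the second ferritin, the vacuolar iron transporter gene that rose, the EIL genes that did not pass, the models between and beyond the bHLH genes, the iron-sulfur gene in the likeness ranking and those marked as looked up after the data were seen, were chosen after their values were seen. The EIN3-binding F-box, CHY-type, ferric reductase oxidase and PLANT CADMIUM RESISTANCE 2 genes that did not pass were also chosen after their values were seen. The alternatives were a pseudocount of 0.1, no minimum, quantile normalization, median centring, the replicate number as a block, a 2-fold minimum and each library left out in turn. Lists without wording mismatches or without low-quality and partly matched models were further alternatives, chosen after seeing the data. Code for the fit was checked on simulated data with known changes. It recovered 34.0% of changes of 1 log2 unit and 84.5% of changes of 2, and 4.96% of its calls were false. A difference of about 1 or less that did not pass can therefore still be present.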

Additional observations from a re-analysis of the deposited data

How the results depend on the processing

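The FER change stayed negative and past the threshold under all 12 alternatives, from -7.56 to -5.72, with limma adjusted p from 1.1e-05 to 0.000786, the last with the replicate number as a block (change -5.92). Same-numbered libraries did not deviate together (r = -0.0481, -0.0738 and 0.108 across genes), so the numbers were not taken as pairs; with the block 2775 genes changed in place of 3407. The count of changed genes was 2018 at a 2-fold minimum and 2125 to 3806 without single libraries. The iron counts ranged from 11 to 17 genes lower and from 6 to 11 higher without single libraries. Differences that turned sign had all failed the test: Solyc06g051570.3 (-0.11 without mutant replicate 3, -0.04 without wild type replicate 2, and up to 0.092 without others), Solyc06g060730.3 (-0.11 without mutant replicate 3, -0.14 without wild type replicate 1, and up to 0.10 without others), Solyc09g066145.1 (0.05 without mutant replicate 2, 0.15 without wild type replicate 3, and down to -0.19 without others) and SCARECROW, Solyc07g063940.2 (0.03 without mutant replicate 3, 0.081 without wild type replicate 2, and down to -0.43 without others). Of 756 values for 63 followed genes, 699 kept direction and side of the threshold, 47 no longer passed and 2 newly passed; the causes were not tested. A pseudocount of 0.1 enlarged changes of low genes, to 3.75 for IRT2 (Solyc02g069190.3) from 1.88 and to -4.11 for Solyc01g094890.3 from -2.20. Depth is unknown, so FER in the mutant cannot be told from 0 by counting error.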
